A study of Homo sapiens with 9 samples.

Results

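The genes described here were 60 protein-coding genes of the short arm of human chromosome 8, from LONRF1 at chr8:12721894-12756073 to NSD3 at chr8:38269697-38382272 (GRCh38). They were listed because an earlier look at the same data found their stretch lower than in U87 in the irradiated lines, so their values against U87 describe the choice and were given no test. Of 60606 genes in the table, 22909 had a mean above 1 TPM and were tested, among them 56 of the 60. TPM gives a gene's transcripts among 1000000 after correction for gene length and library total, so levels of different genes can be compared. Fold changes are differences of log2(TPM + 1), which understates the change of genes near 1 TPM.

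RNA sequencing was carried out on 3 related cell lines with 3 libraries each. U87 is an established human glioblastoma line, grown in medium with 10% serum and not irradiated. GSCs were stem-like cells derived from U87, kept without serum in EGF and bFGF (20 ng/ml of either) and exposed 13 times to 5 Gy. Diff cells were grown out of these GSCs in medium with 10% serum and selected from clonal colonies, so they carry the same irradiation and may descend from few cells. Irradiation, stem cell culture and selection were applied together and cannot be told apart. No unirradiated GSCs were analysed here, and Diff cells and U87 shared a medium that the GSCs did not. The labels do not say that the 3 libraries of a line came from separate cultures, so p-values measure only the spread between these libraries, which may be technical.

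The short arm of chromosome 8 carries several genes studied as tumor suppressors, among them DLC1, TUSC3 and the receptors for the death ligand TRAIL, and it is often lost in human cancers. The listed genes share no pathway. They encode subunits of large complexes such as Integrator, CCR4-NOT, dynactin, PP2A and the V-ATPase, besides receptors, ligands and enzymes of single steps, and many of them have paralogs or complex partners on other chromosomes.

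Among the markers of identity, VIM (mesenchymal filament) had means from 616 to 1640 TPM and CD44 from 296 to 427 TPM, whereas PROM1 (CD133) and SOX2 stayed below a mean of 1 TPM in every line. FABP7 rose from a mean of 0.731 TPM in U87 to 4.91 in GSCs and 2.86 in Diff cells. Of the 5 stem cell markers 3 were tested, and against U87 1 (FABP7) rose and 1 fell in each line. The rise was over 1 on the log2 scale in both lines, and the fall was over 1 in Diff cells only. Of all tested genes 18.9% rose and 20.5% fell in Diff cells, and 25.3% and 23.3% in GSCs. Of the 4 glioma and astrocyte markers 3 were tested, and 3 fell in Diff cells and 2 in GSCs. GFAP is among them, passed the filter only through U87 and so had to be lower. Without GFAP 2 of 2 fell in Diff cells and 1 of 2 in GSCs. Of the 4 markers of leukocytes, macrophages, endothelium and epithelium, PTPRC had a mean of 0.067 TPM, CD68, PECAM1 and EPCAM had means from 1.37 to 3.98 TPM, and PECAM1 rose in GSCs. In bulk RNA, fewer cells of a type and less RNA per cell cannot be told apart. RN7SL1 and the mitochondrial genes took 5.73 to 9.79% and 25.9 to 31.8% of TPM.

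Most listed genes were lower than in U87 in either irradiated line, nearly all of those between XPO7 and NRG1 and a smaller share on either side. Over the 56 tested genes the median log2 fold change was -0.80 in Diff cells, with 48 genes below 0, and -0.80 in GSCs, with 46 below 0. Over all tested genes the medians were -0.04 and 0.02. In 43 of the 56 genes (76.8%) every Diff library lay below every U87 library, against 29.0% of all tested genes. The same was true of 43 genes (76.8%) in GSCs, against 26.6% of all tested genes. Since the genes were listed for being lower, nothing is read from these shares.

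The label of lowered genes did not hold for the first genes of the list. With values in view, so that a contrast between the stretches is partly built in, the list was divided into LONRF1 to ATP6V1B2 (15 genes, 13 tested, starting at 12.7 to 20.2 Mb), XPO7 to NRG1 (39 genes, 37 tested, starting at 21.9 to 31.6 Mb) and ERLIN2 to NSD3 (6 genes, starting at 37.7 to 38.3 Mb). From XPO7 to NRG1 the median log2 fold change was -1.02 in Diff cells and -1.07 in GSCs, and the median level was 47.0% and 44.7% of that in U87. In Diff cells 36 of these 37 genes lay below U87 without overlap, and BMP1 did not. In GSCs 36 of 37 did so, and CCDC25 did not. This is 97.3% in either line, against 29.0% (Diff cells) and 26.6% (GSCs) of all tested genes. FZD3 and PDLIM2 are among them, passed the filter only through U87 and so had to be lower.

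From LONRF1 to ATP6V1B2 the median gene was at 0.06 in Diff cells and at 0.07 in GSCs. Of the 13 tested genes, 5 lay above U87 without overlap in Diff cells and 6 in GSCs, against 26.2% and 29.3% of all tested genes. Both counts include TUSC3, which passed the filter only through GSCs and so had to be higher there. Its Diff libraries had at most 0.292 TPM. There 3 genes lay below U87 without overlap in Diff cells (DLC1, MTMR7 and PSD3) and 4 in GSCs (DLC1, PCM1, NAT1 and PSD3). These are 23.1% and 30.8%, near the 29.0% and 26.6% of all tested genes. From ERLIN2 to NSD3 the medians were -0.22 and -0.19, and EIF4EBP1 stood apart at -1.27 and -1.58. All 6 genes there were below 0 in Diff cells and 4 of 6 in GSCs. Of these 6, 4 lay below U87 without overlap in Diff cells (EIF4EBP1, ASH2L, DDHD2 and NSD3) and 3 in GSCs. These are 66.7% and 50.0%, against the same 29.0% and 26.6% of all tested genes.

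**Figure D1:**
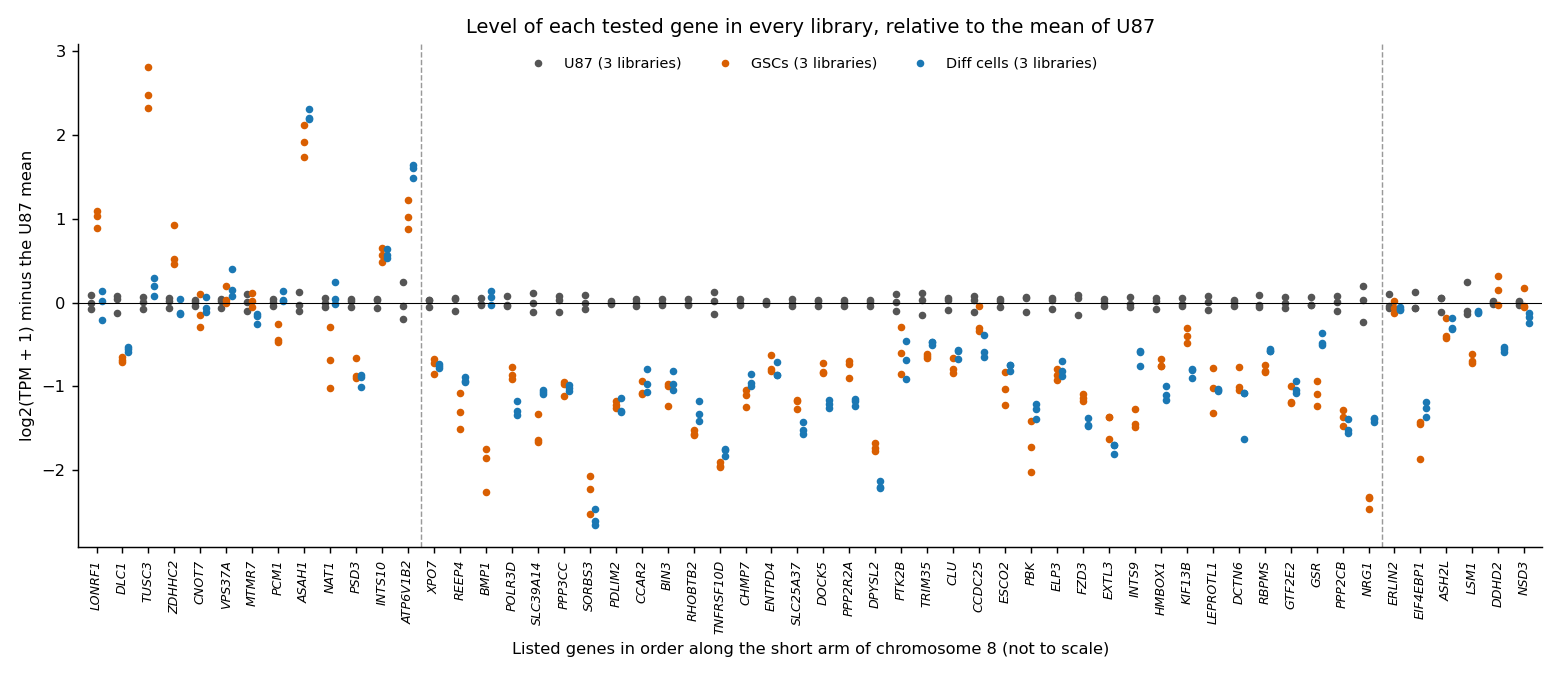
Level of each of the 56 tested genes in all 9 libraries, as log2(TPM + 1) minus the mean of the 3 U87 libraries, in order along the short arm; dashed lines mark the 3 stretches. Between XPO7 and NRG1 nearly all GSCs and Diff libraries lie below 0, with medians of -1.07 and -1.02, whereas ASAH1 and ATP6V1B2 lie above 0 and BMP1 is below 0 in GSCs only.

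The genes of transcription, chromatin and RNA numbered 15, of which 14 were tested, and their median log2 fold change was -0.70 in Diff cells and -0.78 in GSCs. Those between XPO7 and NRG1 were all lower: 8 of 8 tested lay below U87 without overlap in either line, against 29.0% (Diff cells) and 26.6% (GSCs) of all tested genes. XPO7, a nuclear export receptor, had 62.9, 63.1 and 59.4 TPM in the U87 libraries, 36.9, 33.8 and 38.3 in GSCs and 35.6, 36.7 and 36.0 in Diff cells. Both irradiated lines lay far below U87 and overlapped each other. CCAR2, a regulator of the deacetylase SIRT1, had 46.0, 43.1 and 44.7 TPM in U87, 20.6, 22.8 and 20.4 in GSCs and 20.8, 25.3 and 22.2 in Diff cells. It was about as low in either line, although 38.2% of its exon bases are also covered by exons on the opposite strand. Reads there could be split only if counting ignored the strand. EIF4EBP1, the repressor of translation that mTORC1 switches off, was the most abundant listed gene, with 438, 382 and 381 TPM in U87, 148, 146 and 109 in GSCs and 155, 167 and 174 in Diff cells. Its libraries in the irradiated lines lay below every U87 library. In GSCs the listed gene before it, ERLIN2, overlapped U87, whereas ASH2L and LSM1, which follow it, lay below U87 without overlap.

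The Integrator complex, which cleaves nascent small nuclear RNAs and terminates paused transcription, had 2 subunits on the list, and they went opposite ways. INTS10, an auxiliary subunit, had 18.9, 18.7 and 17.4 TPM in U87, 26.1, 27.7 and 29.3 in GSCs and 29.1, 27.0 and 27.7 in Diff cells, so every irradiated library was above U87. INTS9, part of the cleavage module, had 18.7, 17.5 and 17.1 TPM in U87, 6.75, 5.68 and 5.84 in GSCs and 11.5, 11.4 and 10.1 in Diff cells, so every irradiated library was below U87 and GSCs were lowest. LSM1, of the ring that directs decapping of mRNA, had 9.36, 9.63 and 12.5 TPM in U87, 5.89, 6.01 and 6.46 in GSCs and 9.42, 9.62 and 9.54 in Diff cells. GSCs were below the other lines, whereas Diff cells overlapped U87, and 38.5% of LSM1 exon bases are also covered by exons on the opposite strand. The other members in this group that lay below U87 without overlap in both lines were POLR3D (RNA polymerase III), ELP3 (the catalytic subunit of Elongator), HMBOX1, RBPMS, GTF2E2 (TFIIE) and ASH2L (COMPASS), at log2 fold changes from -1.27 to -0.27 in Diff cells. CNOT7, a deadenylase, and NSD3, a histone methyltransferase, were at -0.04 and -0.18 in Diff cells and at -0.11 and 0.03 in GSCs.

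Of the 15 genes of the cytoskeleton and cell division 14 were tested, and they had the lowest median of the 4 groups, -1.08 in Diff cells and -1.05 in GSCs. All 14 were below U87 without overlap in GSCs and 13 in Diff cells, where PCM1, a scaffold of centriolar satellites, was at 0.06. The shares of all tested genes were 26.6% and 29.0%, and PDLIM2 passed the filter only through U87. DPYSL2, a tubulin-binding protein of neurite growth, had 319.9, 325 and 309 TPM in the U87 libraries, 98.6, 95.1 and 92.6 in GSCs and 67.9, 68.6 and 71.7 in Diff cells. The 3 lines did not overlap, and Diff cells were lowest. SORBS3 (vinexin), an adaptor of focal adhesions, had 62.6, 55.6 and 58.5 TPM in U87, 11.8, 13.2 and 9.39 in GSCs and 8.54, 9.81 and 8.84 in Diff cells. At log2 fold changes of -2.27 and -2.57 it was the lowest listed gene on this scale in Diff cells, and second to NRG1 in GSCs. As a percentage of the mean TPM in U87, SORBS3 was at 15.4% in Diff cells and the weakly expressed FZD3, which passed the filter only through U87, was lower at 13.2%.

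PSD3, an exchange factor for ARF6, had 69.8, 66.3 and 71.2 TPM in U87, 36.7, 37.2 and 43.4 in GSCs and 37.6, 33.9 and 36.9 in Diff cells, and with DLC1 it was lower in both lines although its neighbours before XPO7 were mostly not. DOCK5, an exchange factor for Rac, had 59.6, 56.5 and 59.0 TPM in U87, 32.1, 32.4 and 35.1 in GSCs and 25.6, 23.8 and 24.7 in Diff cells, so that Diff cells lay below GSCs and GSCs below U87. The remaining members between XPO7 and NRG1 were REEP4, PDLIM2, BIN3, RHOBTB2, ESCO2 (cohesin acetylation), PBK (a mitotic kinase), KIF13B (a kinesin) and DCTN6 (dynactin), at -1.29 for PBK and -0.83 for KIF13B in Diff cells and -1.72 and -0.39 in GSCs.

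The 17 genes of organelles, transport and metabolism were all tested and were the most divided group. The median gene was at -0.45 in Diff cells and at -0.23 in GSCs, yet the 8 between XPO7 and NRG1 had medians of -0.99 and -1.11. The listed genes highest relative to U87 on the log2 scale, TUSC3 in GSCs and ASAH1 in Diff cells, were in this group. ASAH1, the lysosomal acid ceramidase, had 16.9, 18.9 and 16.0 TPM in U87, 67.5, 59.6 and 78.4 in GSCs and 89.4, 82.5 and 82.9 in Diff cells, log2 fold changes of 1.92 and 2.24. ATP6V1B2, a subunit of the proton pump that acidifies lysosomes, had 33.9, 41.6 and 30.3 TPM in U87, 71.9, 65.0 and 82.8 in GSCs and 108, 100.05 and 111 in Diff cells. Both lysosomal genes were above every U87 library in either line, highest in Diff cells without overlap. TUSC3, a subunit of the oligosaccharyltransferase that glycosylates proteins, was nearly absent in U87 at 0.0581, 0 and 0.0976 TPM, and had 4.84, 4.26 and 6.38 in GSCs and 0.201, 0.105 and 0.292 in Diff cells.

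ZDHHC2, a palmitoyltransferase, had 22.6, 21.9 and 20.7 TPM in U87, 31.6, 30.2 and 42.3 in GSCs and 22.3, 19.7 and 19.9 in Diff cells, so only GSCs stood above U87. NAT1, an arylamine acetyltransferase, had 3.54, 3.70 and 3.90 TPM in U87, 1.93, 1.33 and 2.85 in GSCs and 4.61, 3.86 and 3.67 in Diff cells, and GSCs were lowest. Its neighbour NAT2 is similar in sequence and could share some of its reads. DDHD2, a lipid hydrolase, had 15.0, 15.3 and 15.4 TPM in U87, 17.0, 15.0 and 19.1 in GSCs and 10.03, 9.80 and 10.3 in Diff cells, so here Diff cells were lowest.

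SLC39A14, an importer of zinc and manganese, had 114, 106 and 124 TPM in U87, 35.5, 36.2 and 45.2 in GSCs and 54.1, 53.5 and 55.4 in Diff cells, and the 3 lines did not overlap. GSR, the reductase that renews glutathione, had 51.7, 48.2 and 48.3 TPM in U87, 20.5, 22.5 and 25.3 in GSCs and 35.1, 34.4 and 38.2 in Diff cells, in the same order. The others between XPO7 and NRG1 were CHMP7 (ESCRT), ENTPD4, SLC25A37 (the mitochondrial iron carrier mitoferrin), CCDC25, EXTL3 (heparan sulfate synthesis) and LEPROTL1, at -1.74 for EXTL3 and -1.50 for SLC25A37 in Diff cells. VPS37A (ESCRT), MTMR7 and ERLIN2 differed from U87 by at most 0.21 on the log2 scale, the value of VPS37A in Diff cells.

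Of the 13 receptors, ligands and signaling genes 11 were tested, with medians of -1.02 in Diff cells and -1.01 in GSCs. TNFRSF10D, a decoy receptor that binds TRAIL without passing on the death signal, had 174, 155 and 187 TPM in U87, 45.2, 43.7 and 43.3 in GSCs and 50.2, 47.6 and 49.8 in Diff cells. Both irradiated lines had well under the U87 level, -1.94 and -1.78 on the log2 scale. The other TRAIL receptor on the list, TNFRSF10A, had at most 0.606 TPM in any library and was not tested. The 4 TRAIL receptors lie side by side and are similar in sequence, so reads could be shared among them. CLU (clusterin), a secreted chaperone, had 163, 148 and 165 TPM in U87, 91.4, 100.04 and 88.4 in GSCs and 106, 107 and 99.4 in Diff cells, at -0.76 and -0.61 on the log2 scale.

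NRG1, the ligand of ErbB3 and ErbB4, had 16.2, 13.3 and 18.3 TPM in U87, 2.35, 2.05 and 2.37 in GSCs and 5.24, 5.40 and 5.47 in Diff cells. GSCs had the lowest level and no line overlapped another. BMP1, the protease that trims procollagen and activates lysyl oxidase, had 30.9, 30.9 and 32.5 TPM in U87, 7.99, 8.70 and 5.79 in GSCs and 34.6, 33.1 and 30.8 in Diff cells. It was the only tested listed gene between XPO7 and NRG1 whose Diff libraries overlapped U87. LONRF1, a RING finger protein at the other end of the list, had 10.3, 11.2 and 9.80 TPM in U87, 22.4, 20.1 and 23.4 in GSCs and 10.5, 8.88 and 11.5 in Diff cells, so GSCs alone stood above U87.

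The phosphatases and other signaling members were lower in both lines. PPP2CB, a catalytic subunit of PP2A, was at -1.37 in GSCs and -1.49 in Diff cells, and PPP2R2A, a regulatory subunit of PP2A, at -0.78 and -1.19. PPP3CC, a catalytic subunit of calcineurin, was at -1.01 and -1.02. The kinase PTK2B, the ubiquitin ligase TRIM35 and the Wnt receptor FZD3 were at -0.69, -0.48 and -1.44 in Diff cells.

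The filter at a mean of 1 TPM separated the weakest genes. Just inside it were FZD3 with a mean of 1.23 TPM, PDLIM2 with 1.49 and TUSC3 with 1.804. FZD3 and PDLIM2 passed through U87, where they had 2.67 ± 0.316 and 3.02 ± 0.0529 TPM (SD, n = 3), and TUSC3 passed through GSCs. Just outside it was EGR3, an immediate early transcription factor, with 0.929, 1.17 and 1.03 TPM in U87, 0.346, 0.3897 and 0.430 in GSCs and 0.485, 0.543 and 0.657 in Diff cells. TNFRSF10A, MTUS1 and PDGFRL lay lower still and are only listed. Restricting the stretch from XPO7 to NRG1 to its 34 genes with a mean above 5 TPM gave medians of -1.02 and -1.05.

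Diff cells against GSCs is the comparison that the choice of genes did not use, and it asks which of these genes differed between the irradiated lines. These lines differ in differentiation, in medium and in the selection of colonies, which cannot be told apart. The listed genes did not move together: 13 of the 56 were higher in Diff cells than in GSCs and 12 lower (limma, Benjamini-Hochberg adjusted p under 0.05 over all 22909 genes). These are 23.2% and 21.4% of the tested members, against 15.0% higher and 19.8% lower of all tested genes, and against 20.3% and 23.0% of the 13471 genes with a mean above 5 TPM. The median was 0.04 over the 56 genes and -0.06 over all tested genes. With TPM rescaled after removal of RN7SL1 and the mitochondrial genes, 20 members were higher (35.7%, against 17.7% of all tested genes under the same scaling) and 11 lower (19.6%, against 17.1%). The 12 lower genes include TUSC3, which passed the filter only through GSCs and so had to differ, and 11 were lower without it.

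Apart from TUSC3, changes over 1 on the log2 scale were seen in BMP1 and LONRF1. BMP1 was higher in Diff cells by 2.01 (SE 0.12, limma adjusted p = 8.8e-06), 1 gene where 2.66% of all tested genes were higher by over 1. LONRF1 was at -1.03 (SE 0.11, limma adjusted p = 0.00015), 1 gene where 5.36% of all tested genes were lower by over 1. The Diff libraries of BMP1 and LONRF1 overlapped those of U87. TUSC3 was at -2.35, given as a description because its level in GSCs alone carried it past the filter, and its Diff libraries lay above U87 without overlap. The value for TUSC3 depends on the constant added to TPM and ranged from -4.16 to -0.96 over the alternatives.

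Among the smaller increases NRG1 rose by 0.97 (SE 0.12, limma adjusted p = 0.00045) and INTS9 by 0.76 (SE 0.09, limma adjusted p = 0.00033). NAT1 rose by 0.76 (SE 0.18, limma adjusted p = 0.013) and GSR by 0.64 (SE 0.08, limma adjusted p = 0.00051). LSM1 rose by 0.57, ATP6V1B2 by 0.54 and SLC39A14 by 0.48, with SEs of 0.11, 0.12 and 0.10 and limma adjusted p-values of 0.0045, 0.0094 and 0.0051. PCM1, ASAH1, REEP4, PBK and RBPMS rose by 0.23 to 0.46. NRG1, INTS9, GSR and SLC39A14 were thus less far below U87 in Diff cells than in GSCs.

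The decreases included ZDHHC2 at -0.71 (SE 0.12, limma adjusted p = 0.0022) and DDHD2 at -0.70 (SE 0.09, limma adjusted p = 0.00047). DPYSL2 at -0.45, KIF13B at -0.43, POLR3D at -0.42, DOCK5 at -0.41, PPP2R2A at -0.41, HMBOX1 at -0.35, SLC25A37 at -0.30 and EXTL3 at -0.28 also fell, and these 8 lie between XPO7 and NRG1, where they were further below U87 in Diff cells. The 31 genes that did not pass the test had estimates from -0.32 for DCTN6 (95% interval -0.67 to 0.02) to 0.31 for EIF4EBP1 (95% interval 0.04 to 0.58). XPO7, at -0.01, had an interval of -0.14 to 0.13, and TNFRSF10D, at 0.16, one of -0.00 to 0.31.

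**Figure D2:**
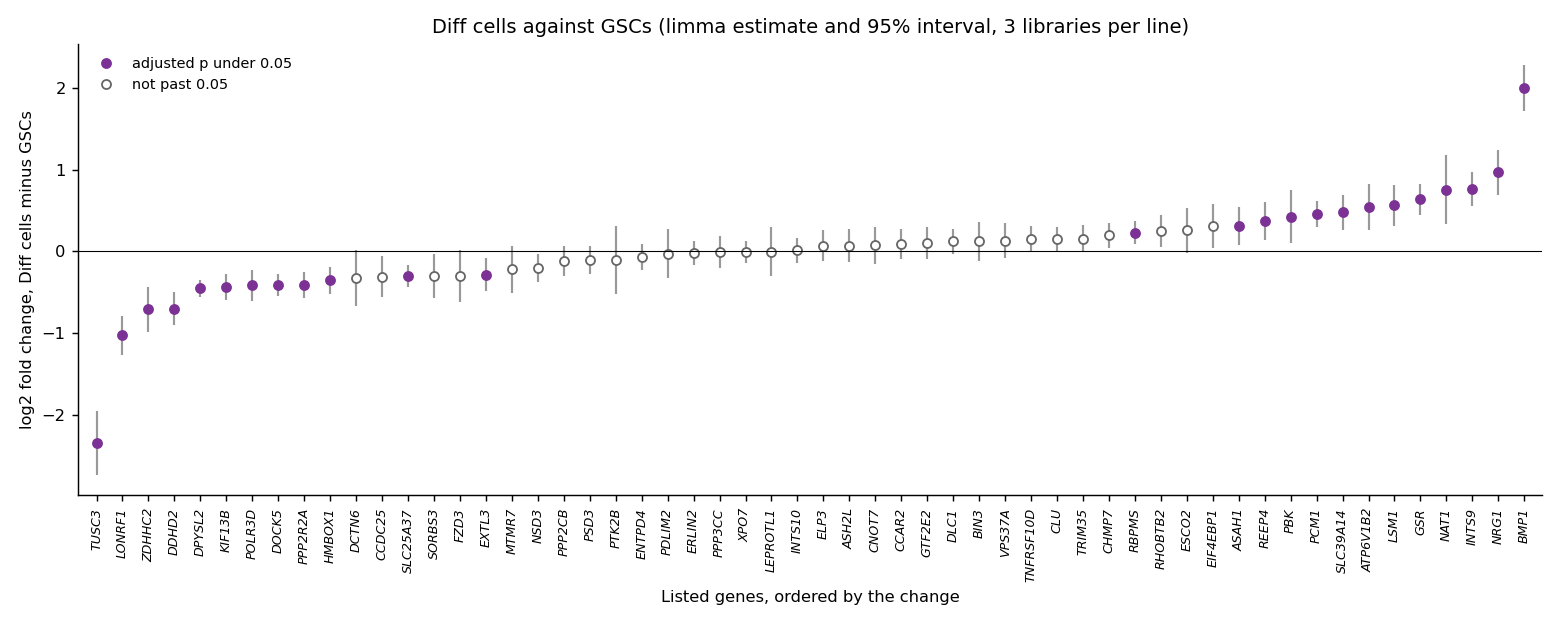
Log2 fold change of the 56 tested genes in Diff cells minus GSCs, ordered by size; points are limma estimates from 3 libraries per line, bars their 95% intervals, and filled points passed an adjusted p of 0.05. TUSC3 at -2.35 and LONRF1 at -1.03 lie at the low end and BMP1 at 2.01 at the high end, with most genes within 0.5 of 0; TUSC3 passed the filter on low values only through GSCs.

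The neighbours on chromosome 8 that are not on the list were also lowest between XPO7 and NRG1. These medians include genes that an earlier look at the stretch had also covered, so they are a description. The 61 unlisted tested genes between XPO7 and NRG1 had medians of -1.13 in Diff cells and -1.03 in GSCs. Of these, 59 (96.7%) and 52 (85.2%) were below 0, against 53.1% and 49.0% of all tested genes. Any that passed the filter only through U87 had to be lower and were not set apart here. The 18 unlisted genes between LONRF1 and XPO7 had medians of -0.17 and -0.33, and the 35 between NRG1 and NSD3 medians of -0.03 and -0.02. The listed genes are all protein-coding, and over the protein-coding genes alone these medians turned to 0.22 and 0.26 before XPO7 (5 genes) and to 0.10 and 0.05 after NRG1 (10 genes), whereas between XPO7 and NRG1 they were -1.40 and -1.21 (26 genes). Beyond NSD3, 41 genes up to the centromere had medians of -0.14 and -0.15, and 519 genes of the long arm had medians of 0.05 and 0.11. Before LONRF1, 97 genes had medians of 0.04 in Diff cells and 0.44 in GSCs. Without the filter on low values, the median of all unlisted genes between LONRF1 and NSD3, -0.76 in Diff cells and -0.69 in GSCs over the 114 tested, was -0.18 and -0.16.

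Some unlisted genes of the stretch are named here after their values were seen. Of these, LOXL2 and STC1 were lower than any listed gene in at least 1 line. LOXL2, which cross-links collagen, was at -3.39 in GSCs and -3.15 in Diff cells, and the hypoxia-responsive gene STC1, a secreted hormone, at -1.22 and -4.21. TNFRSF10B, the TRAIL receptor DR5, was at -1.61 in GSCs and -1.23 in Diff cells. ADAM7 was above 0 in both lines at 0.80 and 1.06. The tested gene next to LONRF1 on the outer side was the processed pseudogene ENSG00000255122, at 1.12 in GSCs and 0.63 in Diff cells. Next to NSD3, and starting within it, was the antisense gene ENSG00000255487, at 0.95 and 0.28, and strand handling in the counting is not given in the sources used here.

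**Figure D3:**
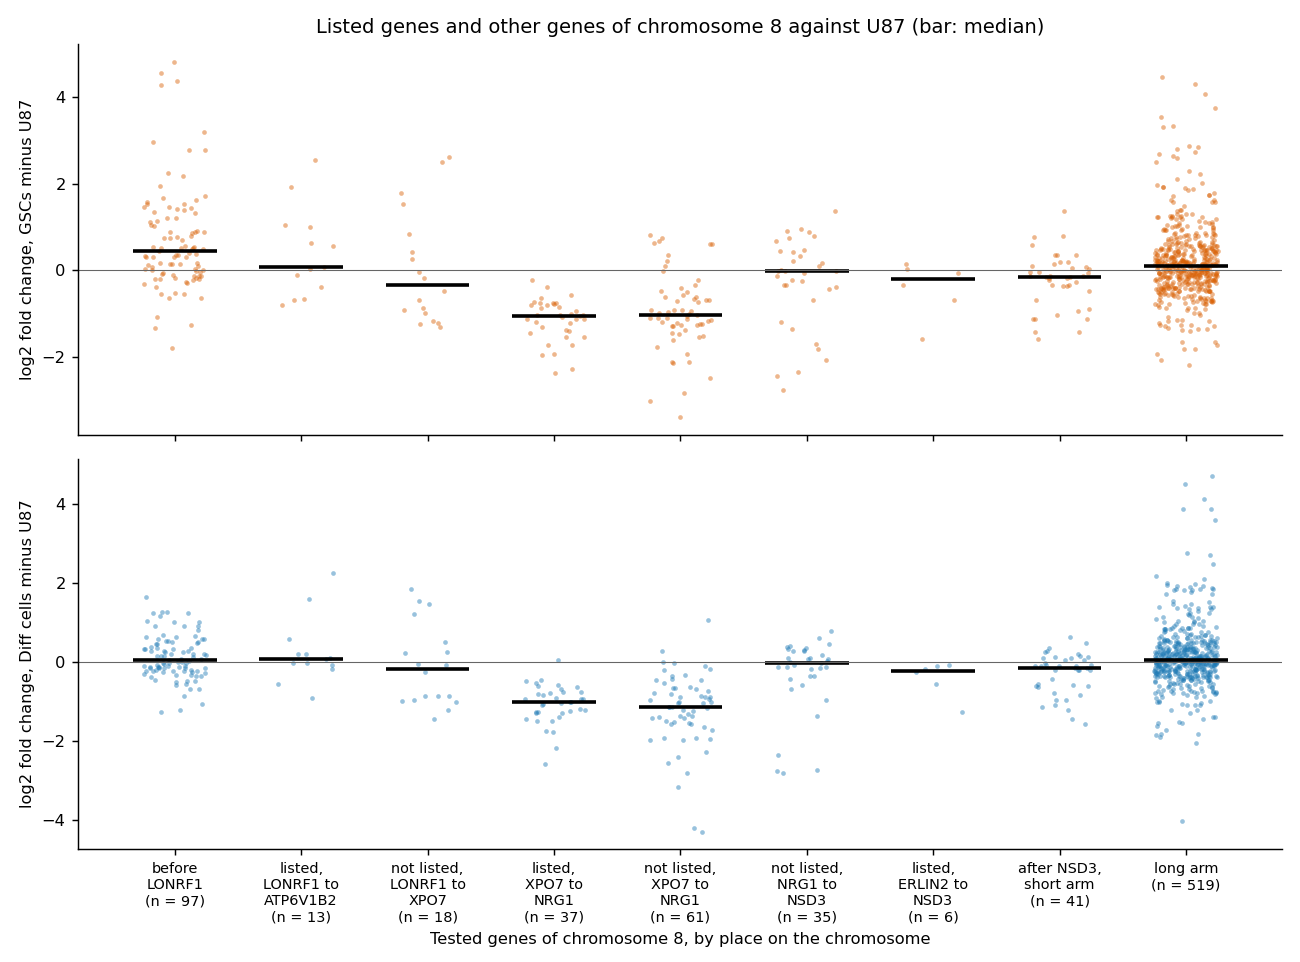
Log2 fold change against U87 of the 827 tested genes of chromosome 8, in GSCs (top) and Diff cells (bottom), grouped by place on the chromosome; each point is a gene and each bar the median. Listed and unlisted genes between XPO7 and NRG1 have medians from -1.13 to -1.02, and the medians of the other groups lie between -0.33 and 0.44.

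Partners of the listed genes in the same complexes, encoded on other chromosomes, were tested against U87 to see whether whole complexes moved. They did not do so in general. Of 111 partners in 11 lists 108 were tested, with medians of 0.03 in Diff cells and 0.01 in GSCs. In Diff cells 26 were higher (24.1%, against 18.9% of all tested genes) and 16 lower (14.8%, against 20.5%), by limma at an adjusted p under 0.05. In GSCs 24 were higher (22.2%, against 25.3%) and 30 lower (27.8%, against 23.3%). Without PPP2R2B, which passed the filter only through U87, 15 of 107 were lower in Diff cells and 29 of 107 in GSCs. The 16 lower partners in Diff cells became 10 without U87 replicate 1 and also 10 without Diff replicate 2.

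V-ATPase partners stood with ATP6V1B2: 9 of 10 tested were higher in Diff cells and 5 of 10 in GSCs, and none was lower in limma, also at an unadjusted p under 0.05. ATP6V1F, a subunit of the same catalytic sector, rose from a mean of 604 TPM in U87 to 1128 in GSCs and 1345 in Diff cells, log2 fold changes of 0.89 and 1.16 (limma adjusted p = 0.00044 and 0.00012). Dynactin, which couples cargo to the motor dynein, went the same way as DCTN6. Of its partners 4 of 9 (44.4%) were lower in Diff cells and 6 of 9 (66.7%) in GSCs, against 20.5% and 23.3% of all tested genes. No dynactin partner was higher in limma, also at an unadjusted p under 0.05. DCTN1, its largest subunit, encoded on chromosome 2, fell by 1.51 in GSCs and by 1.32 in Diff cells, and CAPZB by 1.09 and 0.51, on the log2 scale. An earlier look at these data also found stretches of other chromosomes shifted in the irradiated lines, a stretch of chromosome 2 among them. Whether DCTN1, ATP6V1F or other partners moved with their own stretch rather than with their complex was not tested.

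PP2A and calcineurin partners were 13 tested. In Diff cells 2 were higher (15.4%, against 18.9% of all tested genes) and 5 lower (38.5%, against 20.5%). In GSCs 2 were higher (15.4%, against 25.3%) and 4 lower (30.8%, against 23.3%). The lower ones include PPP2R2B, a brain-enriched regulatory subunit with a mean of 3.12 TPM in U87, 0.0242 in GSCs and 0.0889 in Diff cells, which passed the filter only through U87 and so had to be lower. Without it 4 of 12 were lower in Diff cells and 3 of 12 in GSCs. PPP2R5B fell from a mean of 50.4 TPM in U87 to 24.7 in GSCs and 19.8 in Diff cells. The catalytic subunit PPP2CA, by contrast, was at 0.06 and -0.06 on the log2 scale in GSCs and Diff cells and passed no test. In the death receptor pathway 1 of 6 was higher (16.7%) and 1 lower (16.7%) in Diff cells, near the shares of all tested genes. In GSCs none was higher and 3 were lower (50.0%, against 23.3%) in limma, where 1 was higher at an unadjusted p under 0.05. TNFSF10, which encodes TRAIL itself, was below a mean of 1 TPM and not tested.

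The remaining complexes had small counts, which are set beside the shares of all tested genes by the same limma test. For Diff cells against U87 these shares were 18.9% up and 20.5% down. For GSCs they were 25.3% up and 23.3% down. In Integrator 2 of 11 partners were higher (18.2%) and 1 lower (9.1%) in Diff cells, and 4 higher (36.4%) and 4 lower (36.4%) in GSCs. In CCR4-NOT 1 of 9 was higher and 2 lower in Diff cells, and 3 higher and 2 lower in GSCs. Among partners of RNA polymerase III and TFIIE 1 of 10 was higher and 2 lower in Diff cells, and 3 higher and 2 lower in GSCs. Of the 5 Elongator partners none passed the limma test in Diff cells, where 1 was higher and none lower at an unadjusted p under 0.05, and 1 was higher and 2 lower in GSCs. Of 8 COMPASS methyltransferases and partners 4 were higher and none lower in Diff cells, and 1 was higher and 2 lower in GSCs, where KMT2A rose by 1.08 on the log2 scale. In the LSM ring 1 of 7 was higher and none lower in Diff cells, and 1 higher and 1 lower in GSCs. The counts of 0 for COMPASS and LSM partners in limma were also 0 at an unadjusted p under 0.05. In the ESCRT machinery, which pinches off membranes, 5 of 20 were higher and 1 lower in Diff cells, and 4 higher and 4 lower in GSCs, with MVB12B up by 1.03 in Diff cells.

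Paralogs on other chromosomes were compared with the listed gene they resemble. Of 33 paralogs 29 were tested, and by limma at an adjusted p under 0.05 5 were higher than U87 in Diff cells (17.2%, against 18.9% of all tested genes) and 9 lower (31.0%, against 20.5%). In GSCs 11 were higher (37.9%, against 25.3%) and 11 lower (37.9%, against 23.3%). Without U87 replicate 3, Diff replicate 1 or Diff replicate 3, 3 rather than 5 were higher in Diff cells. In 16 pairs whose listed gene lies between XPO7 and NRG1, the fold change of the listed gene was below that of its paralog in 15 pairs in either line, with REEP4 and REEP3 as the exception, a count that the choice of genes for low values favours. Over all 28 pairs the listed gene was below its paralog in 19 in Diff cells and 20 in GSCs. Of the 17 tested paralogs of listed genes in that stretch, 4 were higher (23.5%) and 3 lower (17.6%) in Diff cells, near the shares of all tested genes. In GSCs 9 were higher (52.9%) and 4 lower (23.5%), against the same 25.3% and 23.3% of all tested genes.

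Several paralogs rose where the listed gene was low. SLC39A8 rose by 0.57 on the log2 scale in GSCs and 0.36 in Diff cells (limma adjusted p = 0.0014 and 0.020), against -1.54 and -1.07 for SLC39A14. ENTPD7 rose by 1.31 and 0.43, against -0.75 and -0.81 for ENTPD4. In GSCs DPYSL3 rose by 0.46 and EIF4EBP2 by 0.32 and DOCK1 by 0.36, whereas in Diff cells the values of these paralogs were -0.13, 0.19 and 0.08 and passed no test.

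Other paralogs followed the listed gene or moved on their own. LONRF3 rose by 1.95 in GSCs and 2.13 in Diff cells on the log2 scale, against 1.01 and -0.02 for LONRF1. REEP3 fell by 1.84 and 1.71, against -1.30 and -0.92 for REEP4. CCAR1 fell by 0.75 in GSCs and was at -0.12 in Diff cells. MAGT1, the paralog of TUSC3, fell by 0.26 and 0.31, and ZDHHC20 by 0.55 and 0.42. ATP6V1B1, at -0.22 and -0.26, and DDHD1, at 0.20 and -0.00018, passed no test. RANBP17 and TLL1, the paralogs of XPO7 and BMP1, were below a mean of 1 TPM.

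**Figure D4:**
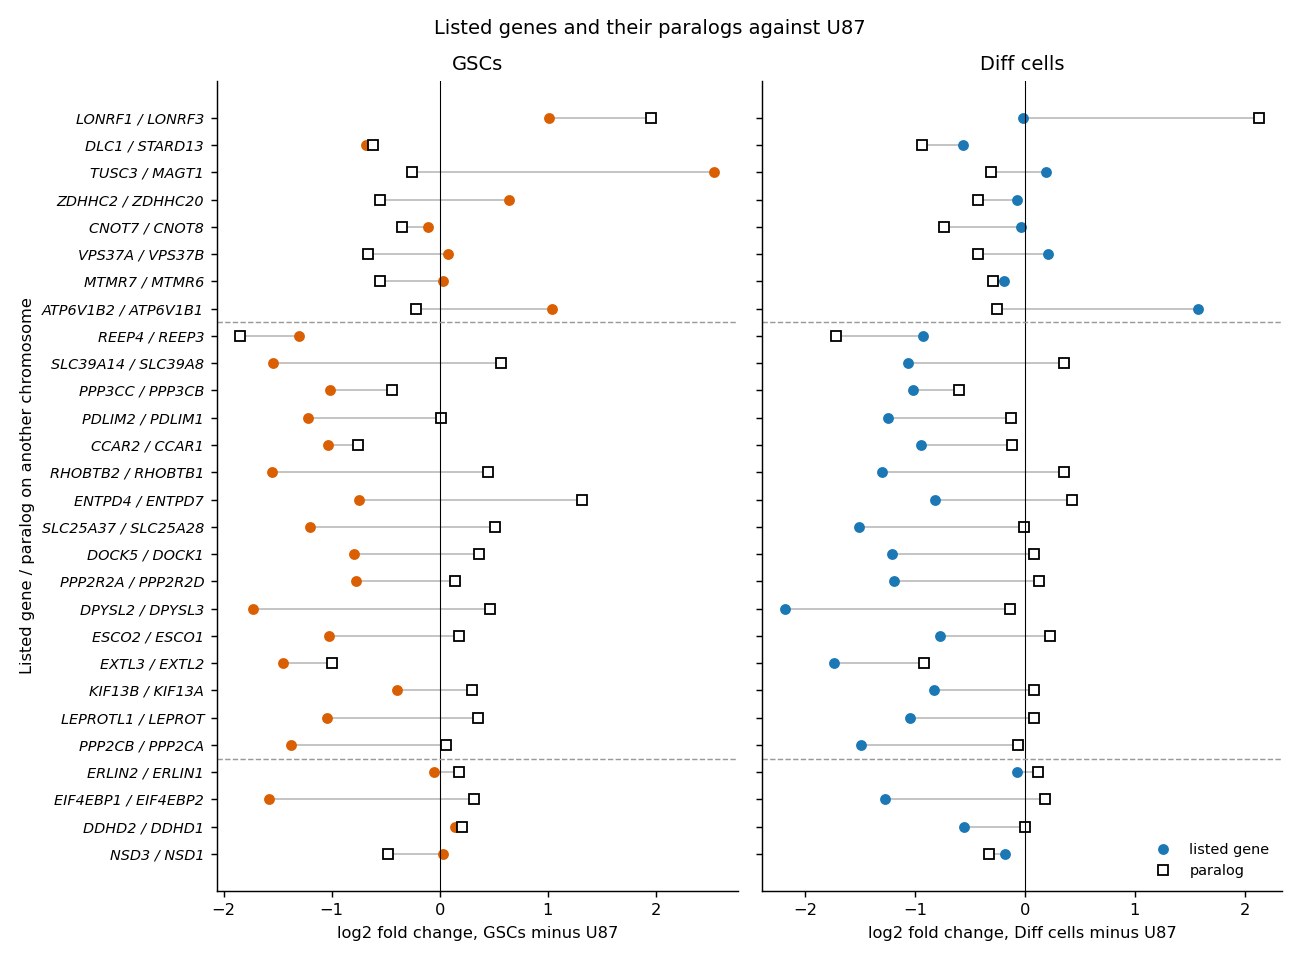
Log2 fold change against U87 of 28 listed genes (filled circles) and of their paralogs on other chromosomes (open squares), in GSCs (left) and Diff cells (right), in order along the short arm; dashed lines mark the 3 stretches. Between the dashed lines the listed gene lies to the left of its paralog in 15 of 16 pairs in either line, and REEP4 lies to the right of REEP3.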

How the data were processed

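The authors deposited 1 table of log2(TPM + 1) values, 60606 genes by 9 libraries. Per the labels' protocols, RNA was extracted with Magzol, depleted of ribosomal RNA and made into strand-marking libraries read in pairs of 150 bases, whereas the paper describes Trizol and oligo(dT) beads. The submitters' processing notes name FastQC 0.11.9, Trimmomatic 0.39, HISAT2 2.2.1, featureCounts 2.0.5, R 4.2.0 and GRCh38. The annotation and the strand setting are not given in the sources used here. TPM keeps no read depth, so depth is unknown and precision comes only from 3 libraries per line.

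Values were back-transformed, and genes with a mean above 1 TPM entered 1 linear model of the 9 libraries (limma 3.58.1 under R 4.3.3, lmFit and then eBayes with trend) with Benjamini-Hochberg adjustment. A count test had been planned for counts, and limma was used because the table is on a log2 scale. Scripts were tested on simulated data. Positions came from GENCODE 29, which matched 53492 genes. Tables used numpy 2.4.6 and pandas 2.3.3 under Python 3.11.15, and figures matplotlib 3.10.9.

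The 60 genes, their 4 functional groups, the 11 partner lists, the paralogs, the markers and the tests were chosen with earlier results of these data known, and the lists were written from general knowledge. Values per library are given for up to 12 members with the largest called change between Diff cells and GSCs, the 3 highest and 3 lowest against U87 in each line, the 3 most abundant of each group and those next to the filter. Partners and paralogs are named where they passed an adjusted p of 0.05 with a log2 change over 1, or where their member is named. The paralog of 1 member is not reported here. Alternatives were other pseudocounts, filters, scalings, variance models, sample sets, a replicate block and leaving out each library. After the data were seen, leaving out 5 members with over 20% of exon bases shared with other genes, on either strand, was added.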

Additional observations from a re-analysis of the deposited data

Results flagged for a closer look

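The change against U87 differed between the irradiated lines for 2 listed genes, tested as Diff cells minus GSCs in the model of all 9 libraries (limma, adjusted p under 0.05, log2 difference over 1). BMP1 differed by 2.01 (95% interval 1.73 to 2.29): its change against U87 was -1.95 in GSCs and 0.06 in Diff cells. LONRF1 differed by -1.03 (95% interval -1.27 to -0.79), with 1.01 in GSCs and -0.02 in Diff cells. In both the 3 GSCs libraries did not overlap the 3 Diff libraries. TUSC3, with a larger difference, is left out because it passed the filter on low values only through GSCs. The GSCs and the Diff cells also differed in culture medium, which cannot be told apart from the line.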

How the results depend on the processing

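No result reversed. TUSC3 aside, the 11 members named for Diff cells against GSCs passed the test under every alternative that kept them. The replicate numbers did not pair the libraries (correlations of same-numbered deviations from -0.042 to 0.049), and with the replicate block 10 members were called higher in Diff cells than GSCs and 11 called lower, and 7230 rather than 7982 genes were called. No scaling moved the median of all genes by over 0.1. The median of members against U87 in Diff cells was -0.88 with a pseudocount of 0.1, -0.59 with 5, -0.76 without a filter, -0.77 after quantile normalization and -0.77 without the 5 members that share exon bases, and in GSCs it was -0.67 with a pseudocount of 5. All unlisted genes between LONRF1 and NSD3 had medians of -0.87 and -0.86 (Diff cells and GSCs) with a filter at 5 TPM, -0.18 and -0.16 without a filter, -0.83 and -0.78 without RN7SL1 and mitochondrial genes, -0.73 and -0.70 with median-ratio scaling, and -0.73 and -0.74 after quantile normalization. The median after NSD3 in Diff cells was -0.072 with the filter at 5, -0.094 without a filter and -0.092 after quantile normalization. Before LONRF1 the GSCs median was 0.18 without a filter, 0.48 without RN7SL1 and mitochondrial genes and 0.39 after quantile normalization, and on the long arm it was 0.017 without a filter. With RN7SL1 and mitochondrial genes removed 20 members were higher in Diff cells than in GSCs. When a log2 change over 1 was also asked for, 1 member was higher and 2 lower (TUSC3 among them) in Diff cells against GSCs. Against U87, 2 partners were higher and 3 lower in Diff cells and 1 higher and 4 lower in GSCs. The lower partners include PPP2R2B in both lines, which passed the filter only through U87 and so had to be lower. Of the paralogs 1 was higher and 1 lower in Diff cells and 2 higher and 1 lower in GSCs. Leaving out 1 library at a time gave 10 to 22 lower partners and 3 to 7 higher paralogs in Diff cells against U87. Apart from the stricter calls and filters, which act by construction, the cause of these shifts was not tested.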
